A study of Rattus norvegicus with 8 samples.

Results

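The response of liver to partial hepatectomy in rats on the control diet is described here from 4 of the 8 arrays of the study. All animals were male rats of the outbred Sprague-Dawley strain, pair-fed a carbohydrate diet (CHO) as the control for chronic ethanol feeding. One pool held liver RNA of 4 untreated rats. The other held liver RNA of 3 rats given AM21, an oligonucleotide with locked nucleic acid (LNA) bases, antisense to the microRNA miR-21, injected intraperitoneally at 7.5 mg/kg in 1 ml saline at 72 h before the operation and again right after it. Each pool was measured on 1 array per time: at 0 h, when 70% of the liver was removed (partial hepatectomy, PHx), and at 24 h. The animal identifiers show the same rats at both times, so each pool is a matched pair, and the spread between animals was not measured. There was no sham operation and no control oligonucleotide, and since AM21 and untreated rats carry separate ranges of identifiers, AM21 cannot be told apart from cohort. The other 4 arrays are the same design in ethanol-fed rats and are used only where the diets are set side by side. Of 18166 genes with a probe set of 1 gene symbol, 8710 had a mean log2 level of at least 5 on the 4 pair-fed arrays and were tested.

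Adult hepatocytes rest outside the cell cycle. After loss of liver mass they are primed by cytokines such as interleukin 6, driven into DNA synthesis by growth factors, and in the rat most of them replicate their DNA about a day after the operation. During this time the remaining liver must go on making plasma proteins, glucose, bile and urea.

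A total of 615 genes, 7.06% of those tested, rose in the pair-fed liver by 24 h, and 477, or 5.48%, fell (limma with the pool as a block, adjusted p under 0.05, 2 matched pairs). DNA replication, mitosis and a few acute phase genes led the rises. The falls were led by genes of the resting hepatocyte, with roles in metabolism, transport and hormone response. The smallest called changes were 0.66 and -0.66 on the log2 scale, and the medians of the called genes were 1.20 and -0.96. In both pools 301 genes (3.46%) were at least 2-fold higher and 145 (1.66%) at least 2-fold lower, and all 446 were among the called genes. With the 8710 genes as points, the changes in the pools correlated at r = 0.780, which describes these arrays, because genes are not independent replicates. Without the AM21 pool the calls were 1298 up and 693 down, and without the untreated pool 721 up and 874 down, with the spread then taken from the ethanol-fed pools. Rises made up 56.3% of the calls, against 45.0% when each array was centred on its median and 48.1% after quantile normalization. Of the genes called up, 183 had a 0 h mean under 5. These entered the test through their 24 h level and could only come out higher, and since arrays of this kind carry no detection call here, their fold is uncertain. The same holds for 45 genes called down with a 24 h mean under 5.

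**Figure D1:**
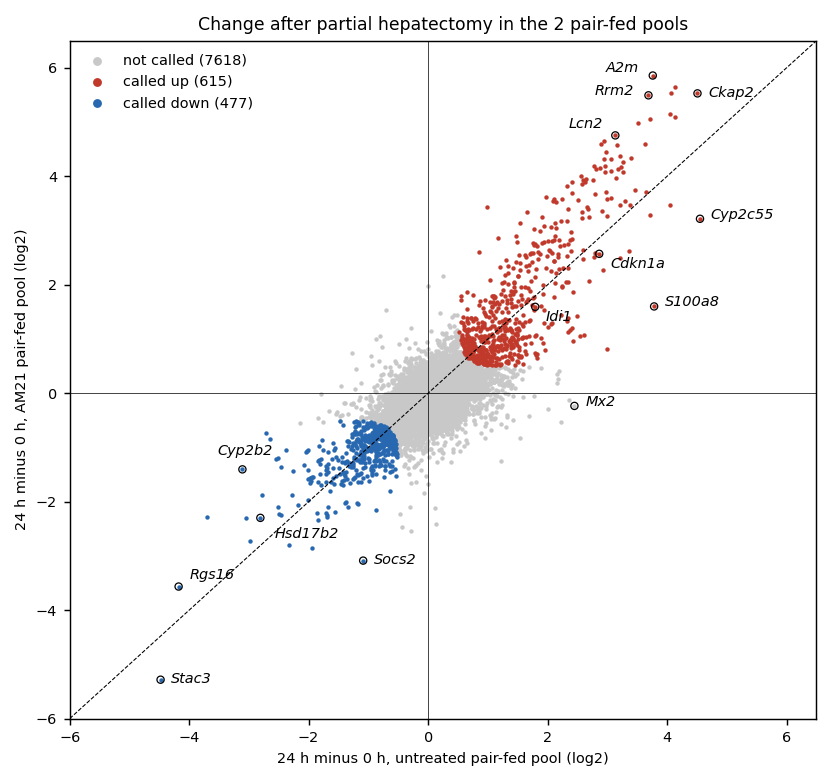
Change from 0 h to 24 h of each of the 8710 tested genes in the untreated (x axis) and AM21 (y axis) pair-fed pools, in log2 units, with 1 point per gene, the dashed line at equal change, and colours for the 615 genes called up and 477 called down. Called genes lie in the upper right and lower left. Ckap2, the largest mean rise, lies above the dashed line, on the side of the AM21 pool, and Cyp2c55, also a steep rise, lies below it.

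Mitosis gave the largest rises. Of the 37 tested genes of kinesins, spindle and kinetochore 36 rose and 0 fell, and of 26 genes of cyclins A and B, CDK1 and their regulators 22 rose and 0 fell. The median changes were 3.04 and 2.59, beside 0.01 over all tested genes. At 0 h, 33 of the 37 and 16 of the 26 had a mean under 5, so most of these genes were tested because of their 24 h level. Including the genes with probe sets at any level, the medians were 2.66 and 2.66.

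Levels are log2 values of single arrays, and where both pools are given the untreated pool comes first and the AM21 pool second. Changes are the mean of both pools ± SE of the limma fit (n = 2 pools). This SE draws mostly on a spread shared over all tested genes, so it is near 0.17 even where both pools changed alike. Ckap2, a microtubule-binding protein of the mitotic spindle, read 3.47 at 0 h and 7.98 at 24 h in the untreated pool, and 3.64 and 9.17 in the AM21 pool. Both 24 h levels stood far above both 0 h levels, a change of 5.02 ± 0.26 (SE), or 32.4-fold, with an adjusted p of 6.33e-04. Top2a, the topoisomerase that untangles DNA of dividing cells, went from 5.14 to 9.27 and from 4.58 to 10.23. Its change of 4.89 ± 0.34 was carried by both pools and was larger in the AM21 pool. Ccnb1, cyclin B1, rose from 4.04 to 8.10 without treatment and from 3.73 to 9.27 with AM21 (4.80 ± 0.33). Its kinase partner Cdk1 rose from 3.98 to 8.03 and from 3.72 to 8.87 (4.59 ± 0.27). In all 4 genes the levels of 0 h and 24 h did not overlap, as in 60.6% of all tested genes. The mitotic kinases Pbk (4.61 ± 0.25) and Ttk (3.77 ± 0.26), the proliferation antigen Mki67 (4.39 ± 0.31) and the kinetochore gene Spc25 (4.24 ± 0.33) rose as well. So did the chromosome motor Kif4a (3.68 ± 0.17), the spindle gene Dlgap5 (3.61 ± 0.18), Cdca3 (4.11 ± 0.25), which acts at entry into mitosis, and the transcription factor Mybl1 (3.76 ± 0.20). Kif4a changed by nearly the same amount in both pools, 3.65 in the untreated and 3.71 in the AM21 pool.

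Origin licensing and the replication fork followed, with 35 of 37 tested genes up and 0 down, a median change of 1.99, and 16 genes with a 0 h mean under 5. Mcm6, a subunit of the replicative helicase, read 5.16 and 8.46 at 0 h and 24 h in the untreated pool and 5.46 and 9.0 in the AM21 pool. Both pools thus moved by similar amounts, 3.42 ± 0.17 on average and 10.7-fold (adjusted p 6.33e-04). Gins1, of the GINS complex that travels with that helicase, rose from 4.11 to 7.49 and from 4.75 to 8.22, a change of 3.43 ± 0.17. Gmnn, the inhibitor of repeated licensing, rose by 3.34 ± 0.22 and Mcm5 by 2.91 ± 0.21. Among enzymes that supply nucleotides 8 of 22 rose and 0 fell, with a median of 0.49. Rrm2, the small subunit of ribonucleotide reductase, went from 7.42 to 11.11 without treatment and from 5.85 to 11.35 with AM21. Its 24 h levels were close to each other while its 0 h levels differed, and the change was 4.59 ± 0.39. Thymidylate synthase, Tyms, read 6.72 and 9.06 in the untreated pool and 6.68 and 9.43 in the AM21 pool (2.55 ± 0.18, 5.84-fold). Deoxycytidine kinase, Dck, rose by 2.60 ± 0.24 and the CTP synthase Ctps1 by 1.62 ± 0.21.

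The promoters of 4 of these genes are printed to show the letters that mitotic and replication genes share. They run from 250 bases before to 50 bases after the RefSeq start on build GRCr8, at chr16:76541864-76542163 (plus strand) for Ckap2, chr10:84473044-84473343 (minus) for Top2a, chr3:160184670-160184969 (plus) for Gins1 and chr13:42404303-42404602 (minus) for Mcm6. Capitals mark the motifs searched on both strands: the CCAAT box (CCAAT), the cell cycle homology region or CHR (TTTGAA or TTCGAA), the E2F site (TTTCCCGC, TTTGGCGC, TTTCGCGC or TTTGCCGC) and the STAT site (TTCNNNGAA). In the textbook account, CHR elements with CCAAT boxes serve genes of G2 and mitosis, and E2F sites serve genes of G1 and S phase.
Ckap2: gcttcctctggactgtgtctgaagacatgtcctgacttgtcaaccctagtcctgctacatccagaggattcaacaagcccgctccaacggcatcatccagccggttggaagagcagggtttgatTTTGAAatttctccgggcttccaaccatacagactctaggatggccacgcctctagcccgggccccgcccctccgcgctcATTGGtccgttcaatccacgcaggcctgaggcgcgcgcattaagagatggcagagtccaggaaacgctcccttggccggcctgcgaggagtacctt
Top2a: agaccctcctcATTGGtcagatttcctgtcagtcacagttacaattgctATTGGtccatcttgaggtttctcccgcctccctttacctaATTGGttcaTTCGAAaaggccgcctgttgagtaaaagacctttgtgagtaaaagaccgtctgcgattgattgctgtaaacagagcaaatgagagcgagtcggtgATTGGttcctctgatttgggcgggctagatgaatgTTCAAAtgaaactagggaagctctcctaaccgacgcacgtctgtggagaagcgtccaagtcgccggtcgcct
Gins1: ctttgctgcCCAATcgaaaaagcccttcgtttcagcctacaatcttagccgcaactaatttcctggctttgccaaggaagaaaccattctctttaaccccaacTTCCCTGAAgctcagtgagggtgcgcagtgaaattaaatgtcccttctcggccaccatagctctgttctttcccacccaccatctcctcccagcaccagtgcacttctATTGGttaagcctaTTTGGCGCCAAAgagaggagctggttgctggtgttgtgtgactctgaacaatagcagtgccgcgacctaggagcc
Mcm6: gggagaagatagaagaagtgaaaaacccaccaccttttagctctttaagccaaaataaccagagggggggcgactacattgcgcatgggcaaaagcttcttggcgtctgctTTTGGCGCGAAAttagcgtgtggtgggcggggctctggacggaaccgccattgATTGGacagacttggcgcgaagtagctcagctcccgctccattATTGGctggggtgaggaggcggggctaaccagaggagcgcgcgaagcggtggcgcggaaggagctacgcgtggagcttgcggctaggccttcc
The Ckap2 window holds 1 CHR at position -126, counted from the start, and 1 CCAAT box in reverse orientation at -46. That of Top2a holds 4 CCAAT boxes and 2 CHR matches. Both replication genes hold 2 E2F matches that overlap each other on opposite strands, at positions -25 and -21 in Gins1 and -139 and -135 in Mcm6. Each also holds 2 CCAAT boxes.

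Over the lists the letters were spread as follows. A promoter was found for 54 of the 63 tested mitotic genes, and 40 of the 54 (74.1%) held a CHR match, as did 13.8% of the promoters of all tested genes and 19.5% of the 27457 promoters of the table. CCAAT boxes were found in 40 of the 54 as well, against 39.3% of the tested genes, and 34 held both, against 6.04%. CCAAT boxes alone were not particular to mitotic genes. They were in 60.6% of the licensing and fork promoters and in 12 of 17 (70.6%) of the cholesterol list. The acute phase, amino acid and P450 lists had 41.9%, 48.7% and 41.4%. E2F matches were found in 16 of the 33 licensing and fork promoters (48.5%), in 5.56% of the mitotic ones and in 4.48% of those of all tested genes. Of the genes called up, 13.9% had an E2F match and 28.5% a CHR match, and of the genes called down 1.31% and 15.2%. The STAT letters were in 7 of 31 acute phase promoters (22.6%) and in 7.08% of the tested genes. Of the genes called up 6.46% held them, and of those called down 6.82%. No promoter window was available for A2m, an acute phase gene with a large rise. These are letters in a window and not measured binding sites.

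**Figure D2:**
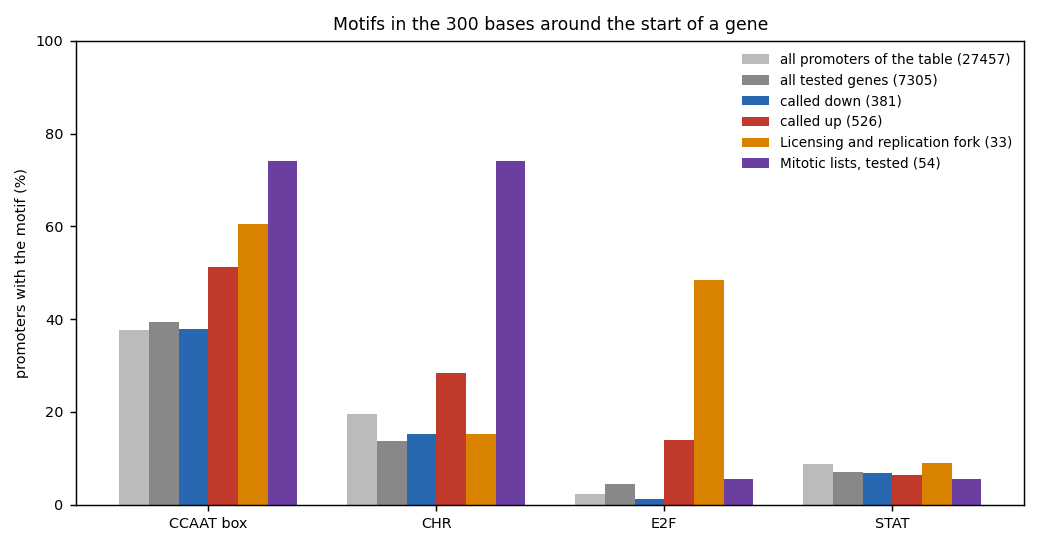
Share of promoters (y axis, percent) that hold each motif (x axis) in the 300 bases around the start, for 6 sets of genes given in the legend with the number of promoters. The mitotic bar stands highest for CHR, at 74.1%, and the licensing bar for E2F, at 48.5%.

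Upstream of replication, 11 of 23 tested genes of G1 cyclins, E2F and cell cycle transcription factors rose and 0 fell (median 0.76). Of the 23, 5 had a 0 h mean under 5, with Ccne2 and Foxm1 among them, and were tested because of their 24 h level. Ccne2, cyclin E2, read 4.71 and 7.41 in the untreated pool and 4.66 and 7.90 in the AM21 pool, 2.97 ± 0.20. The pocket protein gene Rbl1 rose by 2.14 ± 0.18, and Foxm1, a transcription factor of mitotic genes, by 2.43 ± 0.27. Ccnd1, the cyclin D1 of growth factor signalling, did not pass: it read 7.52 and 8.08 without treatment and 7.79 and 8.22 with AM21, a change of 0.49 ± 0.17 (adjusted p 0.112). Cdkn1a, the p21 inhibitor of cyclin-dependent kinases, was higher after PHx, from 5.60 to 8.47 and from 6.58 to 9.15. This rise of 2.72 ± 0.18 was 6.58-fold, and both 24 h levels exceeded both 0 h levels. Of 18 tested p53 targets, which include Cdkn1a, 7 rose and 0 fell, with a median of 0.57. Ccng1, cyclin G1, rose from 8.20 to 9.52 and from 8.03 to 9.70 (1.5 ± 0.18). Phlda3, an inhibitor of AKT, rose by 1.20 ± 0.18, and the death receptor gene Tnfrsf10b by 0.87 ± 0.18, a call that is lost without the untreated pool.

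DNA repair and chromatin genes rose in part. In the DNA repair and damage list 13 of 21 rose and 0 fell, with Bard1, the partner of BRCA1, at 3.34 ± 0.17, the Fanconi anaemia gene Fanci at 2.28 ± 0.17, Mms22l, which acts at stalled forks, at 2.27 ± 0.18 and Uhrf1, which guides maintenance of DNA methylation, at 2.81 ± 0.33. Of the 21, 6 had a 0 h mean under 5, with Bard1, Fanci and Uhrf1 among them. These entered the test through their 24 h level and could only come out higher. Of 23 tested histone and chromatin assembly genes 14 rose and 0 fell, and 2 had a 0 h mean under 5, Asf1b among them. Histone H2ax read 6.04 and 8.32 in the untreated pool and 6.52 and 9.25 in the AM21 pool, 2.51 ± 0.19. Atad2 (2.32 ± 0.19), the histone chaperone Asf1b (2.15 ± 0.17) and the methyltransferase Ezh2 (2.22 ± 0.21) rose with it. The cytoskeleton list had 15 of 34 up and 0 down, with 2 genes at a 0 h mean under 5, Tubb6 among them. Its tubulin Tubb5 rose from 7.51 to 9.92 and from 7.69 to 10.53 (2.62 ± 0.19), with Tubb6 (3.72 ± 0.33), the microtubule destabiliser Stmn1 (2.84 ± 0.32) and Tuba1c (1.87 ± 0.25). Tubulin genes are close paralogs and their probe sets can share signal.

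Growth machinery moved less. Among 44 tested genes of ribosome biogenesis 6 rose and 0 fell (median 0.22), and 27 were higher in both pools, as were 35.9% of all tested genes. Nop56, a core protein of box C/D small nucleolar particles, read 7.24 and 8.49 in the untreated pool and 7.49 and 8.75 in the AM21 pool, 1.26 ± 0.17. Its partner Nop58 rose by 1.25 ± 0.19 and Nhp2, of the box H/ACA particles, by 1.70 ± 0.17. Gar1, also of the H/ACA particles, rose by 0.76 ± 0.17, a call that is lost with no level filter. Of 25 translation factors 0 passed, with 3 of them lower and 16 higher in both pools. Eif2s1, a subunit of the initiation factor eIF2, had a change of 0.60 ± 0.17 (adjusted p 0.0681), and Eef1g of 0.44 ± 0.17. Among 19 aminoacyl-tRNA synthetases Wars1 rose by 1.11 ± 0.24 and Cars1 fell by 0.73, which holds neither with no level filter nor without the untreated pool. Each is 5.26% of the list, beside 7.06% up and 5.48% down over all tested genes.

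Nuclear transport had 11 of 29 genes up and 0 down, with a median of 0.51. Of these genes 2, Nup205 and Nup107, had a 0 h mean under 5. Kpna2, an importin alpha, read 8.92 and 10.31 without treatment and 9.13 and 10.79 with AM21 (1.52 ± 0.17). Ranbp1, of the Ran cycle, rose by 1.53 ± 0.17 and the nuclear pore genes Nup205 and Nup107 by 1.74 ± 0.18 and 1.5 ± 0.17. Of 30 proteasome genes 29 were higher in both pools, as were 35.9% of all tested genes. But 1 passed (3.33%, beside 7.06% of all tested genes), Psmd14 of the regulatory particle, at 1.10 ± 0.18. Of 26 cytosolic chaperones 2 rose (7.69%), Hspa14 by 1.20 ± 0.20 and Cct6a by 1.04 ± 0.25, the latter not without the untreated pool. In the endoplasmic reticulum list 4 of 32 rose and 1 fell. Dnajb11, a co-chaperone of BiP, read 8.64 and 10.11 in the untreated pool and 8.97 and 9.90 in the AM21 pool (1.20 ± 0.20). Ssr1 of the translocon (0.98 ± 0.18) and Sdf2l1 (0.87 ± 0.17) rose, and Herpud1, which serves degradation of misfolded proteins, fell by 1.11. The respiratory chain list had 1 of 38 up (2.63%, beside 7.06% of all tested genes) and a median of 0.03. The call, cytochrome c (Cycs) at 0.74 ± 0.17, is lost with no level filter or with the probe sets of a gene averaged.

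**Figure D3:**
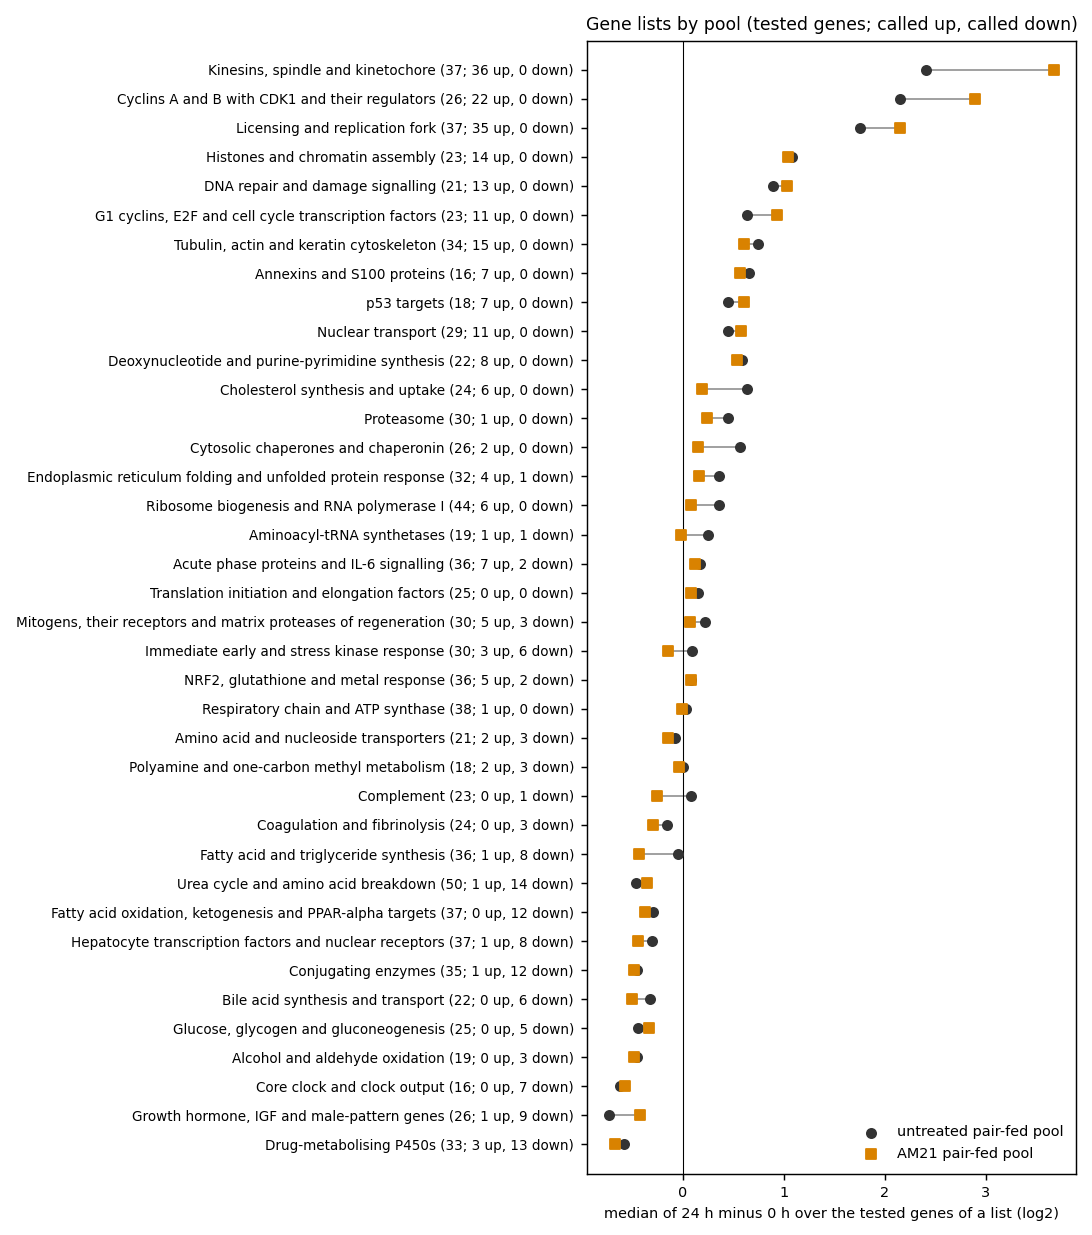
Median change from 0 h to 24 h (x axis, log2) over the tested genes of each functional list in the untreated (dots) and AM21 (squares) pair-fed pools, with the number tested and called up and down in each label. Mitotic and replication lists stand at the top with medians between 1.75 and 3.68, and most lists of hepatocyte metabolism lie left of 0.

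Some acute phase genes passed. Of 36 tested genes of acute phase proteins and interleukin 6 signalling 7 rose and 2 fell, with a median of 0.14. These were 19.4% up and 5.56% down, beside 7.06% and 5.48% of all tested genes. A2m, alpha-2-macroglobulin, the classic acute phase protein of the rat, went from 8.38 to 12.14 in the untreated pool and from 5.69 to 11.55 in the AM21 pool. Its 24 h levels were close to each other while its 0 h level was lower in the AM21 pool, and the change was 4.81 ± 0.44, 28.0-fold (adjusted p 0.00173). Lcn2, lipocalin 2, which binds bacterial iron carriers, showed the same layout, with 8.94 and 12.07 untreated and 7.19 and 11.94 with AM21 (3.94 ± 0.36). Lbp, the lipopolysaccharide-binding protein, rose by 1.37 ± 0.17. The receptor gene Il6r fell, from 8.48 to 6.88 and from 8.49 to 7.10 (-1.49 ± 0.17). Coagulation genes had 0 up and 3 of 24 down: F11 (-1.13 ± 0.17), the prekallikrein gene Klkb1 (-0.98 ± 0.17) and F12 (-0.89 ± 0.17), all of the contact pathway. In the complement list 1 of 23 fell (4.35%, beside 5.48% of all tested genes), Cfd, at -0.78 ± 0.17.

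Ligands, receptors and early response genes of regeneration went both ways at 24 h. Most were under the threshold, but the called shares were above those of all tested genes. Of 30 tested mitogens, receptors and matrix proteases 5 rose (16.7%) and 3 fell (10%), beside 7.06% and 5.48% of all tested genes. Timp1, the tissue inhibitor of metalloproteinases, read 5.77 and 9.13 in the untreated pool and 5.44 and 8.06 in the AM21 pool (2.99 ± 0.22, 7.95-fold). Tnfrsf12a, the receptor for the cytokine TWEAK, rose by 1.67 ± 0.23, while Cxcl12 fell by 0.90 and Egf, epidermal growth factor, by 0.82. Hgf, the hepatocyte growth factor, read 7.0 and 7.64 untreated and 6.68 and 6.90 with AM21, and its change, 0.43 ± 0.19, was under the threshold (adjusted p 0.185). Its receptor Met had 8.01 and 8.23 in the untreated pool and 8.15 and 7.93 in the AM21 pool, opposite signs in the pools. The receptor Egfr had a change of -0.57 ± 0.17 (adjusted p 0.0777). Among 30 immediate early and stress kinase genes 3 rose (10%) and 6 fell (20%). Rgs16, which shuts down G protein signals, fell from 8.82 to 4.65 and from 8.91 to 5.35, -3.87 ± 0.20 or 14.6-fold lower. The phosphatase gene Dusp1 fell from 8.53 to 6.84 and from 8.49 to 6.24 (-1.97 ± 0.20). The transcription factor Klf6 rose by 1.29 ± 0.17 and Gadd45b by 1.25 ± 0.17. Myc, a classic early gene of regeneration, read 7.24 and 7.34 untreated and 6.84 and 6.20 with AM21, and did not pass (adjusted p 0.466).

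**Figure D4:**
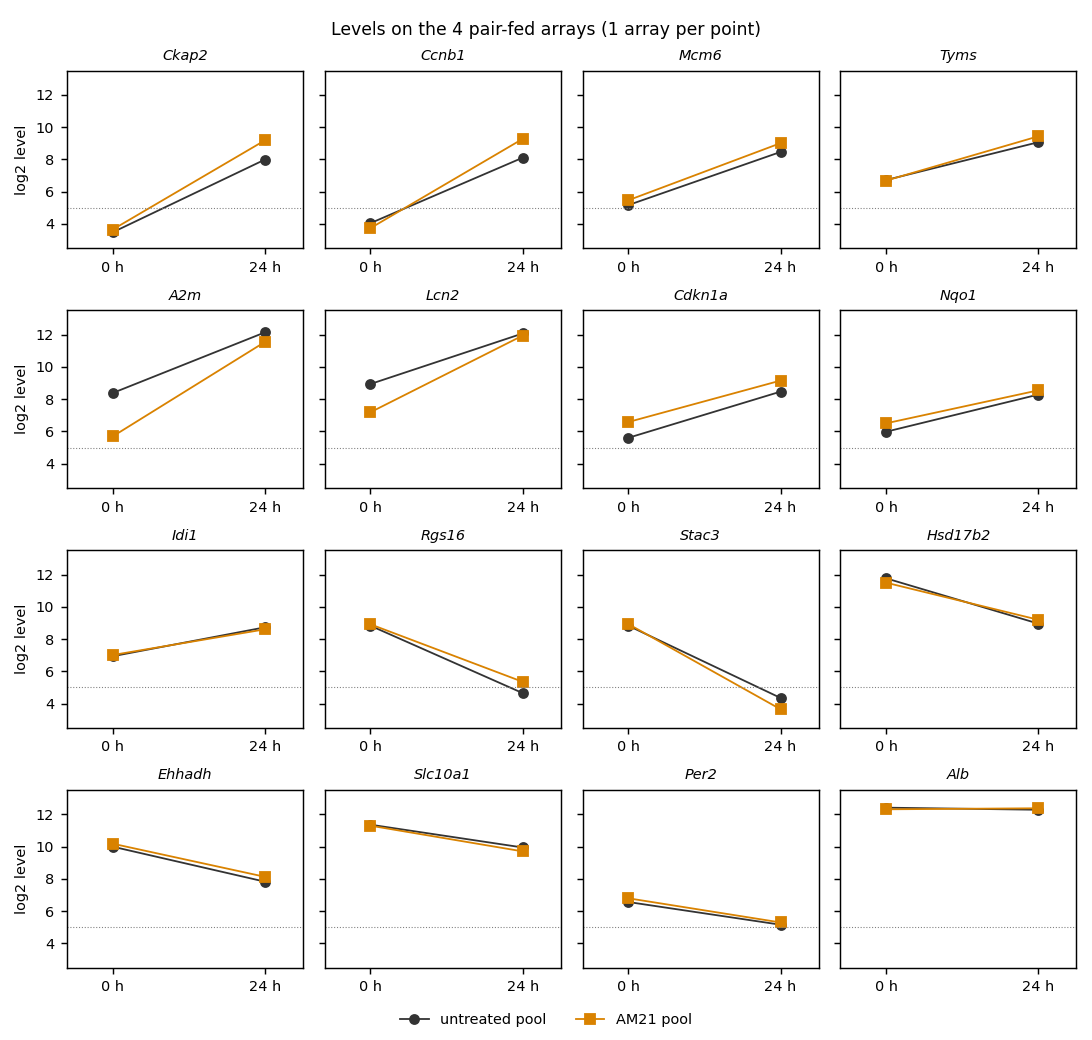
Log2 level (y axis) at 0 h and 24 h (x axis) of 16 genes in the untreated (black) and AM21 (orange) pair-fed pools, with 1 array per point and a dotted line at the level minimum of 5. Lines of both pools run together for Mcm6, Idi1 and Hsd17b2, whereas A2m and Lcn2 start apart at 0 h and meet at 24 h, and Alb is flat.

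Markers of other cell types were read beside these changes, since in whole liver a change in the number of cells of a type and a change in RNA per cell cannot be told apart. Albumin (Alb) read between 12.29 and 12.42 on the 4 arrays, and the summed level of 15 hepatocyte markers was between 15.39 and 15.43 (log2 of the sum), as the tissue label states liver. Of these 15 markers 0 rose and 1 fell (6.67%, beside 5.48% of all tested genes), Asgr2 of the asialoglycoprotein receptor, at -1.04 ± 0.19. Of the 21 neutrophil and monocyte markers with a probe set 15 were under 5 on all 4 arrays and 6 were tested. S100a8 rose from 4.30 to 8.09 in the untreated pool and from 4.82 to 6.42 in the AM21 pool (2.69 ± 0.46), and S100a9 from 4.88 to 7.87 and from 5.00 to 5.82. S100a9, at 1.90 ± 0.46, did not pass without the pool as a block. The summed neutrophil level went from 9.14 to 10.25 without treatment and from 9.23 to 9.38 with AM21. These calprotectin genes are 2 of the 7 rises among 16 annexin and S100 genes, where Anxa2 (1.46 ± 0.18), S100a6 (1.24 ± 0.17) and S100a11 (1.28 ± 0.17) also rose. The part of neutrophils in this list was not tested.

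Kupffer cell and macrophage markers had 1 of 24 up, the scavenger receptor Marco (1.05 ± 0.19), and summed levels between 12.28 and 12.48. That is 4.17% up, beside 7.06% of all tested genes. Stellate cell and fibroblast markers had 5 of 22 up and 4 down, and summed levels between 11.93 and 12.14. Timp1 is among these rises, with Loxl2 at 0.83 ± 0.17, while Colec11 (-1.03 ± 0.19) and Ecm1 (-0.74 ± 0.17) fell, Ecm1 not with no level filter and not without the pool as a block. Of 11 sinusoidal endothelial markers 1 fell (9.09%, beside 5.48% of all tested genes), Dnase1l3 (-0.76 ± 0.17), which does not hold with no level filter. Their summed level went from 10.91 to 10.73 in the untreated and from 11.08 to 10.83 in the AM21 pool. Of 7 tested cholangiocyte and progenitor markers 0 passed, with Afp, the fetal liver protein, at -0.38 ± 0.17. Of the 22 lymphocyte markers with a probe set 15 were under 5 on all 4 arrays and 4 were tested, among which Ccl5 fell by 1.01. The summed lymphocyte level was lower at 24 h in both pools, from 9.72 to 9.05 and from 9.83 to 9.24, and the part of these shifts in other results was not tested. Fabp4, of fat and endothelial cells, rose from 5.45 to 8.05 and from 5.38 to 6.46, a call that ends without the untreated pool (adjusted p 0.110). The 2 tested globin genes did not pass.

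A small set of stress and transport genes rose strongly. Abcb1b, a drug efflux pump, went from 4.79 to 8.18 in the untreated pool and from 4.71 to 9.04 in the AM21 pool, 3.86 ± 0.25 or 14.5-fold. Of 36 genes of the NRF2, glutathione and metal list 5 rose (13.9%) and 2 fell (5.56%), beside 7.06% and 5.48% of all tested genes. The median of the list was 0.03. Nqo1, a quinone reductase, read 5.98 and 8.29 untreated and 6.5 and 8.55 with AM21 (2.18 ± 0.17). The glutathione peroxidase Gpx2 rose by 2.38 ± 0.21 from 0 h levels of 4.60 and 4.28. Tfrc, the transferrin receptor, rose by 0.97 ± 0.17 and not without the untreated pool. The zinc importer Slc39a4 fell by 0.79.

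Lipid genes separated by pathway. In fatty acid oxidation, ketogenesis and PPAR-alpha targets 0 of 37 rose and 12 fell, and 30 were lower in both pools, as were 34.8% of all tested genes. Ehhadh, the bifunctional enzyme of peroxisomal oxidation, read 10 and 7.83 in the untreated pool and 10.18 and 8.13 in the AM21 pool. Both pools fell alike, -2.11 ± 0.17 or 4.32-fold lower. The receptor gene Ppara fell from 9.02 to 7.06 and from 8.76 to 7.14 (-1.79 ± 0.18). Cpt1a, which controls entry of fatty acids into mitochondria, fell by 1.35 and the ketone body enzyme gene Bdh1 by 1.46. In fatty acid and triglyceride synthesis 1 of 36 rose and 8 fell. Pklr, liver pyruvate kinase, read 9.14 and 7.14 untreated and 9.72 and 7.74 with AM21 (-1.99 ± 0.17), and Thrsp, a lipogenic regulator, fell by 1.48. The desaturase gene Scd fell by 1.18, a call that is lost without the block.

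Of 24 tested genes of cholesterol synthesis and uptake 6 rose and 0 fell, with a median of 0.63 in the untreated and 0.19 in the AM21 pool. Idi1, isopentenyl diphosphate isomerase, read 6.93 and 8.72 in the untreated pool and 7.01 and 8.6 in the AM21 pool, 1.69 ± 0.17 or 3.23-fold. Sqle, squalene epoxidase, rose from 7.69 to 9.37 and from 8.15 to 9.47 (1.51 ± 0.18). Dhcr7, of the last step, rose by 1.15 ± 0.19, a call that ends without the block (adjusted p 0.0584), and Hsd17b7 by 0.98 ± 0.17. Tmem97, a sterol-regulated gene listed with fatty acid synthesis, rose from 9.26 to 10.84 and from 9.68 to 10.96, and was the 1 rise of that list.

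Some genes of bile acid and drug handling fell. In bile acid synthesis and transport 0 of 22 rose and 6 fell. Slc10a1, the sodium-dependent bile acid importer, read 11.36 and 9.95 in the untreated pool and 11.30 and 9.70 in the AM21 pool, -1.5 ± 0.17 or 2.83-fold lower. The uptake carrier Slco1a4 fell by 1.44, the nuclear receptor gene Nr0b2 by 1.72 and the sterol hydroxylase Cyp27a1 by 0.92. Cyp7a1, which sets the rate of bile acid synthesis, moved in opposite directions, from 9.59 to 9.30 without treatment and from 8.33 to 9.53 with AM21, and did not pass (adjusted p 0.427). Of 33 drug-metabolising P450 genes 13 fell and 3 rose. Cyp2j3 fell from 9.10 to 7.70 and from 9.44 to 7.42 (-1.71 ± 0.21), and Cyp4f4 from 8.66 to 7.4 and from 8.73 to 7.45. Cyp2b2, a phenobarbital-inducible P450 with close paralogs, read 8.77 and 5.66 untreated and 6.98 and 5.58 with AM21. It fell by 2.26, but not without the untreated pool (adjusted p 0.283) and not with all 8 arrays (0.0588). Cyp2c55 rose against the list, from 4.74 to 9.29 and from 4.46 to 7.68, 3.88 ± 0.31. Cyp2e1, the ethanol-inducible P450, stood at -0.50 ± 0.17, which missed the threshold (adjusted p 0.109).

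Conjugating enzymes had 12 of 35 down and 1 up. The methyltransferase Inmt fell from 6.75 to 3.77 and from 6.46 to 3.73, -2.85 ± 0.17, into the range under 5. Fmo1, a flavin monooxygenase of the same list, fell by 1.80, the glutathione transferase Gstm7 by 1.87 and the sulfotransferase Sult1c3 by 1.56. In the alcohol and aldehyde list 3 of 19 fell and 0 rose. Aldh2, the mitochondrial enzyme that clears acetaldehyde, read 10.42 and 9.62 untreated and 10.50 and 9.66 with AM21 (-0.83 ± 0.17). Dhrs3 (-0.77 ± 0.17) and Aldh3a2 (-0.68 ± 0.17) were lower too, and neither call holds with no level filter. Ptgr1, a prostaglandin reductase, fell by 2.04.

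Falls among genes of amino acid and glucose metabolism outnumbered rises. In the list of amino acid breakdown and the urea cycle 14 of 50 tested genes fell and 1 rose. Sds, serine dehydratase, read 7.02 and 4.24 in the untreated pool and 7.26 and 5.39 in the AM21 pool, -2.33 ± 0.24. Kmo of tryptophan breakdown fell from 9.96 to 8.25 and from 10.04 to 8.55 (-1.60 ± 0.17). Bckdha, of branched-chain keto acid oxidation, fell by 1.34 and the transaminase Gpt2 by 1.31. In the glucose list 5 of 25 fell and 0 rose. Ppp1r3b, which targets protein phosphatase 1 to glycogen, read 9.06 and 7.13 untreated and 9.87 and 7.01 with AM21, -2.40 ± 0.25. Slc37a4, the glucose-6-phosphate transporter, fell by 1.53, Ugp2, which makes UDP-glucose, by 1.55 and pyruvate carboxylase, Pc, by 1.40. Among polyamine and one-carbon genes 2 of 18 rose and 3 fell, with spermidine synthase, Srm, at 1.02 ± 0.19 and Gnmt, an abundant glycine methyltransferase of liver, at -1.20 ± 0.17. Methionine synthase, Mtr, fell by 0.94. The transporter list had 2 of 21 up and 3 down. Slc17a2 (-1.88 ± 0.19) and the glycine transporter Slc6a9 (-1.49 ± 0.17) fell, while Slc1a4 (1.11 ± 0.23) and Slc13a3 (0.74 ± 0.18) rose, calls that both end without the untreated pool, and for Slc13a3 also with no level filter (adjusted p 0.0684).

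Some genes of a growth hormone, IGF and male-pattern list and some transcription factors fell. Stac3, best known from the calcium channel complex of muscle, read 8.83 and 4.35 in the untreated pool and 8.93 and 3.65 in the AM21 pool. This was the largest fall of the 8710 genes, -4.88 ± 0.23 or 29.5-fold lower (adjusted p 6.33e-04), and it ended under the level minimum. In the list of growth hormone, IGF and male-pattern genes, which holds Stac3, 9 of 26 fell and 1 rose, with a median of -0.62. Dependence on growth hormone was not tested. Cyp2c11, Cyp2c13, Cyp2a2 and Cyp3a2, which are in the P450 list, did not pass. Hsd17b2, which inactivates sex steroids, fell from 11.76 to 8.95 and from 11.49 to 9.19, 5.87-fold (-2.55 ± 0.19). The NADPH oxidase Nox4 fell from 8.21 to 5.16 and from 7.58 to 5.28 (-2.68 ± 0.22), and the prolactin receptor Prlr by 1.57. Serpina6, the corticosteroid-binding globulin, fell from 11.36 to 8.84 and from 11.42 to 9.32 (-2.31 ± 0.18). The kinase gene Pink1 of mitochondrial quality control (-2.08 ± 0.18), Nrep (-2.35 ± 0.17) and C8h11orf54 (-2.36 ± 0.17) complete the largest falls. Of 37 hepatocyte transcription factors and nuclear receptors 8 fell and 1 rose. Zfp354a, a zinc finger repressor, fell from 9.27 to 5.57 and from 7.99 to 5.71 (-2.99 ± 0.32). Cebpa, a factor of hepatocyte differentiation, read 7.43 and 6.22 untreated and 7.21 and 5.80 with AM21 (-1.32 ± 0.17), and the glucocorticoid receptor Nr3c1 fell by 1.09. Pdcd4, a target of miR-21 in the literature, read 8.86 and 8.13 untreated and 8.95 and 7.90 with AM21, and fell by 0.89 (adjusted p 0.0240).

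Of 16 clock genes 7 fell and 0 rose, with a median of -0.59. Per2, a repressor of the core clock, read 6.56 and 5.16 in the untreated pool and 6.80 and 5.30 in the AM21 pool (-1.45 ± 0.17). Dbp, an output factor, fell from 8.75 to 6.20 and from 8.53 to 7.32 (-1.88 ± 0.31), Per3 by 1.53 and Tef by 1.30. The levels of 0 h and 24 h did not overlap in any of these 4 genes, as in 60.6% of all tested genes. Bmal1, the activator of the core clock, is added after its values were seen: it read 4.26 and 6.63 in the untreated pool and 5.94 and 5.81 in the AM21 pool, and did not pass (adjusted p 0.209). The clock hour at which the tissue was taken is not given in the sources used here.

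The size of the change differed between the pools in some gene groups. The change was more positive in the AM21 pool in 36.6% of all tested genes, but in 37 of 37 kinesin, spindle and kinetochore genes, 25 of 26 of cyclins A and B and 31 of 37 of licensing and the fork. The spindle list had medians of 2.40 in the untreated and 3.68 in the AM21 pool. In the ethanol-fed pools the same list had medians of 1.64 and 2.24. Within the control diet the difference has no replicate. A test chosen after seeing the data took it over all 8 arrays and both diets (limma, time by AM21, pool as a block, 1 residual degree of freedom). It called 0 of 8710 genes, with a smallest adjusted p of 0.192 and 607 genes (6.97%) at an unadjusted p under 0.05. Among the spindle genes 29 of 37 had an unadjusted p under 0.05 with the larger change in the AM21 pools, as did 18 of 26 of cyclins A and B and 8 of 37 of licensing and the fork, and 0 genes of these lists had one in the other direction. The median differences of these lists, AM21 minus untreated, were 0.74, 0.66 and 0.33. Among characterised genes with a mean of at least 7, the largest difference was that of Slc34a2, a phosphate transporter, from 6.12 to 8.34 without treatment and from 7.77 to 7.23 with AM21. Mx2, an interferon-induced gene, read 7.05 and 9.50 untreated and 6.62 and 6.39 with AM21. The growth hormone feedback gene Socs2 changed by -1.09 and -3.09. Onecut1, a liver transcription factor, changed by 0.11 and -2.11, and Gpam, of triglyceride synthesis, by 2.16 and 0.19. On the other side, next to A2m and Rrm2, Igfbp1, an IGF-binding protein of liver, went from 8.66 to 8.90 and from 6.76 to 8.93, Upp2, a uridine phosphorylase, from 9.31 to 6.60 and from 8.04 to 7.31, and the olfactory receptor symbol Or8h7b from 7.92 to 6.64 and from 7.46 to 8.21. Of these, Socs2 and Upp2 passed over both pools, Upp2 not with the probe sets of a gene averaged.

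Most of the pair-fed response was seen in the ethanol-fed pools too. Of the 615 genes called up 577 were also higher in both ethanol-fed pools, as were 39.9% of all tested genes. Of the 477 called down 448 were also lower in both, as were 35.0% of all. The difference of the response between the diets was tested on all 8 arrays (limma, pool as a block, 2 residual degrees of freedom). It called 0 genes, with a smallest adjusted p of 0.0619 and 836 genes (9.60%) at an unadjusted p under 0.05. It called 42 when the response to PHx could also differ with AM21, a fit that leaves 1 residual degree of freedom. Of those 42, 36 had the more positive change in pair-fed liver. Among the 37 spindle genes 27 and among the 26 of cyclins A and B 18 had an unadjusted p under 0.05, with median differences of 1.04 and 0.90 towards a larger rise in pair-fed liver. For Ckap2 the untreated and AM21 pools changed by 4.51 and 5.53 on the pair-fed side and by 1.84 and 3.70 on the ethanol-fed side. Its 0 h levels were 3.47 and 3.64 with the control diet and 5.56 and 4.13 with ethanol. At 24 h they were 7.98 and 9.17 against 7.40 and 7.83. The level filter used the pair-fed arrays alone, where 33 of the 37 spindle genes had a 0 h mean under 5. The part of the 0 h levels in the diet difference was not tested.

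Sterol genes, clock genes and p53 targets are set side by side for the diets. In cholesterol synthesis and uptake 14 of 24 genes were higher at 24 h in both pair-fed pools and lower in both ethanol-fed pools, as were 3.05% of all tested genes. Idi1 stood at 1.79 and 1.59 in pair-fed pools and at -0.95 and -0.38 in ethanol-fed pools, untreated and AM21, and Sqle at 1.68 and 1.33 against -1.43 and -0.71. Per2 fell by 1.41 and 1.5 with the control diet, and with ethanol its changes were 0.32 and 0.64. Of 16 clock genes 3 were lower in both pair-fed and higher in both ethanol-fed pools, as were 4.04% of all tested genes. Cdkn1a changed by 2.86 and 2.57 in pair-fed liver, and by 0.02 and 0.09 in ethanol-fed liver. The diets differed before surgery: at 0 h Cdkn1a read 5.60 and 6.58 with the control diet and 8.38 in both ethanol-fed pools, which read 8.4 and 8.47 at 24 h. Its diet difference of 2.66 had an adjusted p of 0.0619 and passed with the AM21 term (adjusted p 0.00502). Phlda3 showed the same layout, 1.40 and 1.00 against 0.02 and 0.03, from 0 h levels of 5.70 and 6.32 against 6.81 and 6.78. At 0 h Idi1 stood at 6.93 and 7.01 in pair-fed and at 8.36 and 8.04 in ethanol-fed liver, and Per2 at 6.56 and 6.80 against 5.33 and 4.56. The 0 h levels of these 4 genes are part of their change. The diet difference at 0 h was not tested, and the share of all tested genes with such a difference was not counted.

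**Figure D5:**
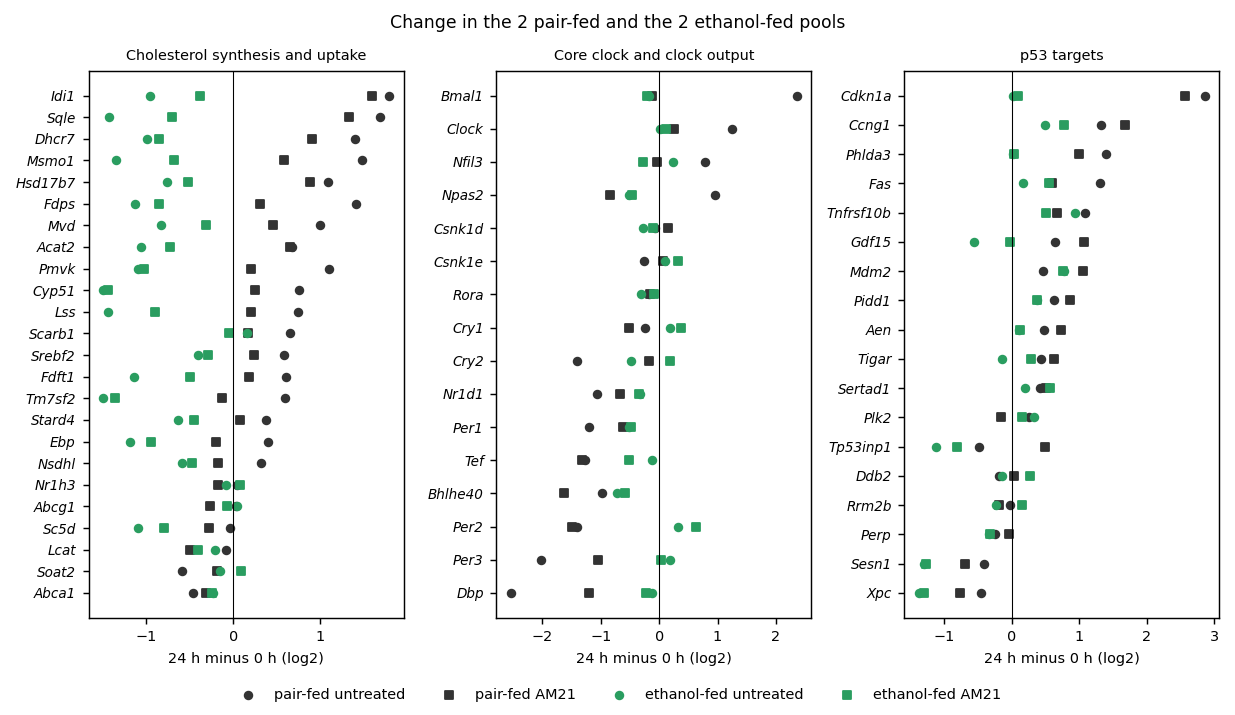
Change from 0 h to 24 h (x axis, log2) of each tested gene of 3 lists in the pair-fed (black) and ethanol-fed (green) pools, with dots for untreated and squares for AM21 pools. Most sterol genes lie right of 0 in the pair-fed and left of 0 in the ethanol-fed pools, and Cdkn1a reaches 2.86 and 2.57 in the pair-fed pools while it stays near 0 in the others.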

How the data were processed

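Total RNA of pooled livers had been amplified, biotin-labelled and hybridised to Affymetrix arrays. Values were deposited as log2 levels. The submitters' processing notes name RMA and Affymetrix Expression Console as the authors' tools, with no version given in the sources used here. RMA draws the arrays' distributions together, so a shift shared by most genes is not seen. Medians of the 4 arrays ran from 4.13 to 4.23. Arrays give no depth, and the number of pools limits precision.

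Of 36685 probe sets 18511 had 1 symbol, 575 several and 17599 none. The brightest probe set stood for each gene. Matched by gene identifier to RefSeq GRCr8 were 18394, with 0 symbols updated, and promoter windows come from that table (the first listed where a gene has several). The fit (limma 3.58.1 in R 4.3.3, pool as fixed block, pairing by animal identifiers, Benjamini-Hochberg adjustment) leaves 1 residual degree of freedom and 5.48 prior degrees of freedom. SE and p-values thus rest mostly on a spread shared over all tested genes, and less on the 2 pools of a gene. The spread between animals is not in them. In simulated data of 8710 genes it recovered 34 of 50 genes changed by 1 log2 unit and 50 of 50 changed by 2, and called 14 of 8510 unchanged genes. For the diet difference it recovered 5 of 50 and 46 of 50, and called 5. For the AM21 difference over both diets it recovered 24 of 50 and 50 of 50, and called 8. The simulated noise was independent between genes and drawn from the fitted model, so these counts describe fits whose assumptions hold.

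The genes and lists were chosen with earlier results of these data known; the 47 lists come from general knowledge. Named genes are the 15 largest rises and falls by the smaller pool change, up to 4 called genes per list (2 where none passed), the 5 largest pool and diet differences per side, and a fixed set, of which 1 item is not reported here. Alternatives changed the block, arrays, level filter, normalization, probe set summary, variance trend, fold and pools. Python 3.11.15, pandas 2.3.3, numpy 2.4.6 and matplotlib 3.10.9 were also used.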

Additional observations from a re-analysis of the deposited data

Results flagged for a closer look

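Several genes moved one way in both pair-fed pools and the other way in both ethanol-fed pools. The difference of the change, pair-fed minus ethanol-fed, was 2.36 for Idi1, 2.57 for Sqle, 2.07 for Dhcr7 and 1.63 for Hsd17b7, all of sterol synthesis, and 1.84 for Acsl3, which activates fatty acids. It was -1.93 for Per2 and -1.64 for Per3 of the clock, -2.16 for Lox, which crosslinks collagen, -1.17 for Lrtm2 and -1.07 for Erc2. None of these 10 passed the test of the difference itself (limma, pool as a block, 836 genes at an unadjusted p under 0.05). Of them, 7 were among the 42 genes called when the response could also differ with AM21. Idi1, Sqle, Dhcr7, Acsl3, Per2, Lox, Lrtm2 and Erc2 were named in part for small p-values of this same difference. The 7 are thus no separate support. Over all tested genes 3.05% were higher in both pair-fed and lower in both ethanol-fed pools, and 4.04% the reverse. The pair-fed call of Lox is lost with no level filter and without the block, and that of Erc2 without the block. Groups of 1 array allow no search for samples that stand apart.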

How the results depend on the processing

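Without the pool as a block, 697 genes were called up and 566 down; the pairing comes from the animal identifiers. With all 8 arrays and a separate coefficient per diet the counts were 1006 and 851. Calls down were 855 with arrays centred on their median and 915 after quantile normalization, which moved the median change by -0.07 and -0.05. Leaving out 1 pool gave 721 to 1298 calls up and 693 to 874 down. At least 2-fold up in both pools were 184 genes at a level minimum of 6, 594 at 1.5-fold and 153 at 3-fold; at least 2-fold down, 454 at 1.5-fold and 28 at 3-fold. The diet difference called 5 genes without the block, 42 with the AM21 term, 9 with centred arrays, 1 at a level minimum of 6 and 0 to 51 with 1 pool left out. No level filter left it at 0.

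List medians moved by more than the spread between the pools in 19 of 47 lists under centring, 15 without the AM21 pool, 11 without the untreated pool, 12 after quantile normalization, 11 with no level filter, 8 and 10 at level minimums of 4 and 6, and 0 with probe sets averaged. Their sign changed in 4, 4, 6, 3, 2, 0, 2 and 0 lists. The largest reported median among these lists was 0.26 in size without the AM21 pool, 0.15 without the untreated pool and at most 0.092 elsewhere. Medians shifted by -0.64 to 0.56 without the AM21 pool and by -0.56 to 0.63 without the untreated pool.

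Of 156 named called genes, 147 held with no level filter, 150 without the block, 148 without the untreated pool, 154 with probe sets averaged, 155 with all 8 arrays and 156 under centring, quantile normalization, the intensity trend and without the AM21 pool. All kept their direction. With 1 pool left out this is no check, since the genes were mainly chosen for changes the same way in both pools. At a level minimum of 6, 128 were still tested and held. Genes that did not pass changed sign: Alb was 0.016 after quantile normalization. With 1 pool left out the changes ran from -0.66 to 0.0068 for Hba-a1, -0.98 to 0.61 for Hbb-b1, -0.54 to 2.22 for Slc34a2, -0.23 to 2.45 for Mx2, -2.11 to 0.11 for Onecut1, -1.28 to 0.75 for Or8h7b, -0.13 to 0.064 for Alb, -0.65 to 0.10 for Myc, -0.23 to 0.22 for Met and -0.29 to 1.2 for Cyp7a1. The fits with 1 pool take their spread from the ethanol-fed pools. The cause of these differences was not tested.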
